A study of Homo sapiens with 12 samples.

Results

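At the end of the long arm of chromosome 22, in band 22q13.33, lies a dense run of protein-coding genes from BRD1 to RABL2B. The 34 genes described here are those of this run given by name in a list, of 54261 genes in the deposited table. The list was chosen by measured values, the difference of these same counts between HCT116oxR and parental HCT116 seen in earlier results. That difference is therefore given here as a description. Calls of the members are counted only beside the share of all genes called, and no conclusion rests on them. All 34 were matched to the NCBI gene table, which places them within 1010 kb of GRCh38, from chr22:49773278 to chr22:50783636.

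HCT116oxR is a derivative of HCT116, a human colorectal carcinoma line, grown in oxaliplatin raised from 0.1 to 5 µmol/L, the last dose for 1 year. Parental HCT116 is its untreated source. From each of them, 3 libraries of total RNA and 3 of small RNA were made, labelled as grown and harvested independently. There was 1 resistant line, so the errors and tests reflect how far cultures of a line lay apart and do not extend to other resistant lines. Total counts were 12259870 to 13558077 in the HCT116oxR and 11950069 to 13340564 in the parental total RNA libraries. Of 8 colon epithelial markers, 7 averaged at least 1 CPM (the count scaled to a common library size, with TMM factors) in both lines, and the exception was VIL1. Their summed level was 3695 to 3780 CPM in HCT116oxR and 3076 to 3184 CPM in parental cells, and its part in the results was not tested. Of 5 leukocyte markers, 0 reached 1 CPM in either line. Of 6 fibroblast markers, 2 averaged at least 1 CPM in both lines. They were COL1A1 (43.3 CPM in HCT116oxR and 53.5 CPM in parental cells) and COL1A2 (4.10 and 5.95 CPM). Of 4 endothelial markers, 1 did, VWF (2.72 and 1.63 CPM).

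These genes share a position, not a pathway. They encode signalling kinases, parts of the spindle and of condensed chromosomes, enzymes of the endoplasmic reticulum, the lysosome and the mitochondrion, and several proteins known from germ cells, brain or muscle. The end of the long arm is the part missing in Phelan-McDermid syndrome, whose main gene is SHANK3. Messenger RNA counts report the level of each transcript and not the number of copies of its gene, which was not measured in the files used here.

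Of the 34 genes, 30 passed the filter on low counts. In 29 of them every HCT116oxR library lay below every parental library, which held for 24.8% of all 17511 genes tested. As many, 29, were past an adjusted p of 0.05 in edgeR's quasi-likelihood test and lower, and 0 were higher. Over all tested genes 21.8% were lower, 22.3% higher and 44.1% either, and nothing is read from the members' counts, because this contrast chose them. In bulk RNA, fewer cells that carry a transcript and less of it per cell cannot be told apart. The median log2 fold change of the 30 was -1.17, with quartiles of -1.48 and -0.85, beside a median of -0.00 and quartiles of -0.25 and 0.28 for all genes tested. Of the 30, 20 were at -1 or lower, which 4.09% of all tested genes reached. Most members thus stood between about -1.5 and -0.5, 13 of them from -1.5 to -1.0 and 8 from -1.0 to -0.5.

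Summed over the 34 genes, the HCT116oxR libraries held 1673, 1717 and 1684 CPM, against 3372, 3438 and 3579 CPM in the parental libraries. As a share of all counts this was 0.169% ± 0.00228 in HCT116oxR and 0.344% ± 0.0109 in parental cells (SD, n = 3 each). The libraries of a line lay close together, and the lines did not overlap.

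**Figure D1:**
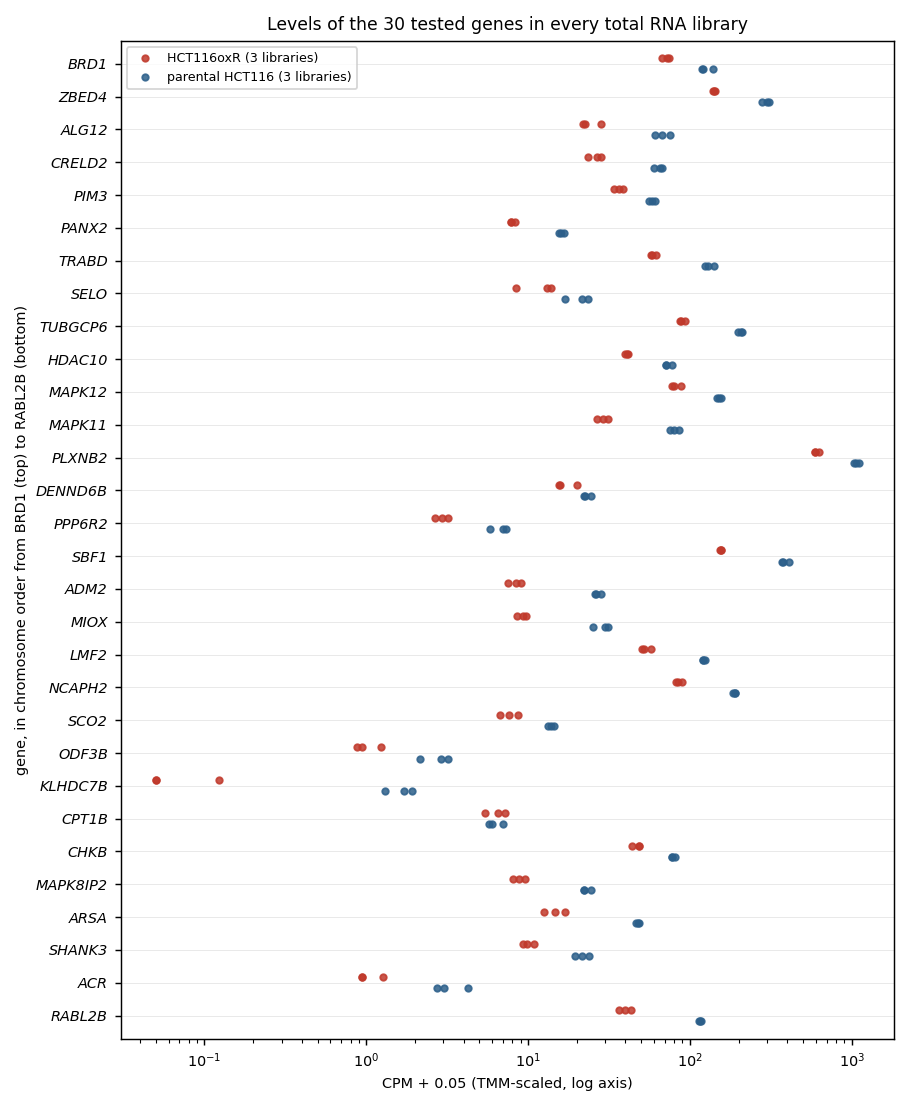
Level of each of the 30 tested genes in every total RNA library, in CPM plus 0.05 on a log axis, with HCT116oxR above parental HCT116 in each row. The 3 HCT116oxR libraries sit left of the 3 parental ones in 29 rows, and CPT1B is the row where they overlap.

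The proximal end of the run holds BRD1, ZBED4, ALG12, CRELD2 and PIM3. BRD1, a reader protein that anchors histone acetyltransferase complexes to chromatin, had 67.6, 73.8 and 72.3 CPM in the HCT116oxR libraries and 120.4, 118 and 138 CPM in the parental libraries. Its log2 fold change was -0.82 ± 0.06 (SE here and below). ZBED4, a zinc finger gene, stood at 144, 139.5 and 140.4 CPM in HCT116oxR, against 280.5, 308 and 300.2 CPM in parental cells (-1.07 ± 0.04). In neither gene did the lines overlap. Of all tested protein-coding genes, 24.6% fell and 25.5% rose, the shares beside which this and the later gene lists stand. The lists were written with earlier results of these data known, and none was tested as a set. Of 11 other genes of the MOZ/MORF and HBO1 acetyltransferase complexes tested, 3 fell and 2 rose, with a median of -0.03. ING5, a histone-binding subunit, fell by 0.34 ± 0.06, ING4 by 0.36 ± 0.13 and the acetyltransferase KAT7 by 0.15 ± 0.04, and JADE1 rose by 0.19 ± 0.06. The call of ING4 was lost in DESeq2 (-0.36) and without HCT116oxR replicate 2 (-0.34), HCT116oxR replicate 3 (-0.34) or parental replicate 1 (-0.22), and that of JADE1 without HCT116oxR replicate 1 (0.15).

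ALG12 encodes a mannosyltransferase that builds the oligosaccharide for N-glycosylation in the endoplasmic reticulum, and CRELD2 a secretory-pathway protein that is induced when proteins misfold there. ALG12 had 22.4, 21.8 and 28.0 CPM in HCT116oxR, against 67.3, 60.6 and 75.8 CPM in parental cells, and its mean was 35.5% of the parental mean. ALG12 (chr22:49859311-49918438) and ZBED4 (chr22:49852850-49890080) overlap on opposite strands. Since the use of strand in counting is not given, reads in the overlap cannot be told apart, and the values of both are uncertain to that extent. CRELD2 had 26.6, 23.6 and 28.3 CPM in HCT116oxR, against 65.4, 67.0 and 60.1 CPM in parental cells (-1.30 ± 0.08). ALG12 and CRELD2 point away from each other with annotated ends 196 bases apart, so that a single stretch of DNA precedes both. PIM3, a serine/threonine kinase gene, was less low, with 33.7, 36.4 and 38.6 CPM in HCT116oxR and 56.1, 57.9 and 61.3 CPM in parental cells (-0.69 ± 0.07).

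The stretch between ALG12 and CRELD2 is shown because it serves 2 members at once and holds a known stress element. It is chr22:49918384-49918683 on the plus strand of GRCh38.p14 (RefSeq), from 250 bases before to 50 after the CRELD2 start, and 295 of its 300 bases are also in the same window of ALG12. Capitals mark a match to the endoplasmic reticulum stress element (ERSE, searched on both strands), which reads in the ALG12 direction, 61 bases before the CRELD2 start and 115 bases before the ALG12 start.
CRELD2: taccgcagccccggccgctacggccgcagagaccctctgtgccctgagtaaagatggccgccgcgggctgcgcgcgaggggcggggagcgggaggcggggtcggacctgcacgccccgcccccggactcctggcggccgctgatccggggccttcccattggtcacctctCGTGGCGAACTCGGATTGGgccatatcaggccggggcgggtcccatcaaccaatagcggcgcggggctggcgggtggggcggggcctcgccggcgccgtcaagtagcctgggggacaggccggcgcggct
The searched ERSE pattern fixes the letters at both ends and leaves those between them free, so the middle capitals could be any letters. A match to this pattern occurred in 22 of 27305 RefSeq promoter windows of this length, or 0.0806%. Among the 28 members with a window, the 2 with a match were ALG12 and CRELD2. A match is a description of the letters and shows no binding.

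Other targets of that stress response went in both directions. Of 19 tested, 7 fell and 4 rose, and their median log2 fold change was -0.03. HSPA5, the main chaperone of the endoplasmic reticulum, fell to 1005 ± 26.9 CPM in HCT116oxR, against 1300 ± 18.2 CPM in parental cells (-0.37 ± 0.03, edgeR adjusted p = 1.50e-24). TRIB3 fell by 0.55 ± 0.05 and DDIT3, the gene of CHOP, by 0.46 ± 0.11, while MANF, a secreted survival factor, rose by 0.61 ± 0.07. Among the other N-glycan assembly enzymes, 9 of 20 fell and 1 rose, with a median of -0.18. The falls were led by DPM2 (-0.74 ± 0.09) and ALG2 (-0.55 ± 0.07), then DPM3 (-0.40 ± 0.14). ALG13 rose by 0.38 ± 0.05. DPM3 was not called without parental replicate 2 (-0.29).

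The middle of the run holds kinases, a receptor and parts of the spindle. MAPK11 and MAPK12 encode p38 beta and p38 gamma, stress-activated kinases. MAPK11 had 26.5, 31.1 and 28.8 CPM in HCT116oxR, against 75.2, 80.1 and 85.7 CPM in parental cells (-1.48 ± 0.07). MAPK12 had 88.1, 77.4 and 79.3 CPM in HCT116oxR, against 146, 157 and 151 CPM in parental cells (-0.89 ± 0.05). Neither gene overlapped between the lines. The p38 alpha gene MAPK14 on chromosome 6 averaged 49.4 ± 1.32 CPM in HCT116oxR and 53.1 ± 0.723 CPM in parental cells and did not pass the test (-0.11 ± 0.07, adjusted p = 0.231 in edgeR). MAPK13, the p38 delta gene on the same chromosome, rose (0.53 ± 0.06), with 107, 116 and 106 CPM in HCT116oxR, against 77.3, 73.0 and 76.8 CPM in parental cells. Where 24.6% of all tested protein-coding genes fell and 25.5% rose, 8 of 16 tested p38 pathway genes outside the run fell. Another 2 rose, and the median of the 16 was -0.16. DUSP16 (-0.79 ± 0.08) and DUSP10 (-0.72 ± 0.26), phosphatases that switch these kinases off, were the lowest, and DUSP10 was not called by DESeq2 (-0.73) or without HCT116oxR replicate 1 (-0.41), HCT116oxR replicate 3 (-0.70) or parental replicate 3 (-0.54).

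PLXNB2, a receptor for class 4 semaphorins, was the member with the most counts. It had 594, 625 and 594 CPM in HCT116oxR, against 1040.5, 1070.1 and 1115 CPM in parental cells (-0.83 ± 0.03). Its ranges were far apart, and it supplied 23727 of the members' counts over the HCT116oxR libraries and 40289 over the parental libraries. PLXNB1 on chromosome 3 rose by 0.29 ± 0.05 and PLXND1 by 0.41 ± 0.06. PLXNA2 rose to 8.59 ± 1.44 CPM in HCT116oxR, against 0.446 ± 0.202 CPM in parental cells (4.22 ± 0.31). Among all 16 plexin, semaphorin and partner genes tested, 8 rose and 4 fell, with a median of 0.23. The semaphorin genes SEMA4G (0.83 ± 0.25) and SEMA4C (0.53 ± 0.07) rose.

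TUBGCP6, a subunit of the gamma-tubulin ring that nucleates microtubules, had 88.1, 87.4 and 93.8 CPM in HCT116oxR, against 198, 210.1 and 208 CPM in parental cells (-1.19 ± 0.05). NCAPH2, the kleisin subunit of condensin II, had 81.9, 89.9 and 84.6 CPM in HCT116oxR, against 189.6, 184.5 and 191 CPM in parental cells (-1.14 ± 0.05). Both were lower in every HCT116oxR library. Of the 10 other gamma-tubulin ring genes tested, 4 rose and 0 fell, namely MZT1 (0.58 ± 0.09), MZT2B (0.37 ± 0.10), NEDD1 (0.27 ± 0.06) and TUBGCP3 (0.24 ± 0.05). Of 8 other condensin genes, SMC4 (0.49 ± 0.06), NCAPD2 (0.42 ± 0.06) and NCAPG (0.10 ± 0.04) rose, SMC2 fell by 0.17 ± 0.05, and 4 did not pass. NCAPG was not called by DESeq2 (0.10) or without HCT116oxR replicate 1 (0.04), parental replicate 2 (0.08) or parental replicate 3 (0.10), and its libraries overlapped between the lines.

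SBF1, which encodes an inactive myotubularin phosphatase that activates its relatives, had 153.5, 156.0 and 156 CPM in HCT116oxR, against 375, 372 and 412 CPM in parental cells (-1.32 ± 0.04). HDAC10, a polyamine deacetylase, averaged 40.7 ± 0.941 CPM in HCT116oxR and 73.3 ± 3.48 CPM in parental cells (-0.85 ± 0.07). PPP6R2, a regulatory subunit of protein phosphatase 6, averaged 2.90 ± 0.282 CPM in HCT116oxR and 6.67 ± 0.821 CPM in parental cells (-1.20 ± 0.23). Of the 6 other genes of that phosphatase, PPP6R1 (-0.40 ± 0.09), the catalytic subunit gene PPP6C (-0.32 ± 0.06) and ANKRD52 (-0.15 ± 0.04) fell, and ANKRD44 (0.51 ± 0.17) and ANKRD28 (0.15 ± 0.05) rose. ANKRD28 was not called without HCT116oxR replicate 3 (0.13) or parental replicate 3 (0.09). The annotated spans of PPP6R2 and SBF1 overlap, and since the use of strand in counting is not given, reads in the overlap cannot be told apart.

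The other middle members lay between -1.14 and -0.43. TRABD averaged 59.4 ± 2.31 CPM in HCT116oxR and 131 ± 9.15 CPM in parental cells (-1.14 ± 0.06). PANX2, a pannexin channel gene, averaged 7.95 ± 0.224 CPM in HCT116oxR and 16.1 ± 0.641 CPM in parental cells (-1.01 ± 0.14). SELO, now named SELENOO, encodes a mitochondrial selenoprotein and averaged 11.8 ± 2.96 CPM in HCT116oxR and 20.7 ± 3.39 CPM in parental cells (-0.80 ± 0.14). DENND6B was the non-overlapping member with the smallest difference, its HCT116oxR mean being 74.3% of the parental mean (-0.43 ± 0.11). Of 17 other selenoprotein genes tested, 5 rose and 4 fell, led by DIO2 (1.29 ± 0.47), SEPP1 (0.90 ± 0.21), TXNRD3 (0.70 ± 0.11) and SEPN1 (0.46 ± 0.04). DIO2 was not called by DESeq2 (1.29) or without HCT116oxR replicate 1 (1.23), HCT116oxR replicate 2 (1.00), parental replicate 1 (0.99) or parental replicate 2 (1.13), and its libraries overlapped between the lines.

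Toward the end of the chromosome the differences were larger for several genes. ADM2, which encodes the peptide hormone intermedin, had 8.41, 7.46 and 8.96 CPM in HCT116oxR, against 26.3, 28.1 and 25.9 CPM in parental cells (-1.69 ± 0.13). MIOX, the first enzyme of inositol breakdown and best known from kidney, averaged 9.11 ± 0.561 CPM in HCT116oxR and 28.7 ± 3.11 CPM in parental cells (-1.66 ± 0.12). ARSA, the lysosomal arylsulfatase that is deficient in metachromatic leukodystrophy, had 14.6, 16.8 and 12.5 CPM in HCT116oxR, against 48.1, 47.9 and 46.3 CPM in parental cells (-1.69 ± 0.10). In each of these 3 genes the HCT116oxR mean was 30.9% to 31.7% of the parental mean. By gene order, the 14 tested among the first 17 members had a median log2 fold change of -0.95 and the 16 tested among the last 17 had -1.35. Across the 30 genes, log2 fold change and position had a Pearson's r of -0.23 and a Spearman's rank correlation of -0.34, a description only, since neighbouring genes share their libraries and are not replicates.

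Of 10 other lysosomal sulfatase genes and their partners, 3 rose and 4 fell. ARSB rose by 0.65 ± 0.11 and IDS by 0.45 ± 0.05, and GALNS fell by 0.51 ± 0.09. SUMF1, which activates all sulfatases, fell by 0.52 ± 0.21, a call that DESeq2 did not make (-0.52) and that was lost without HCT116oxR replicate 2 (-0.42), HCT116oxR replicate 3 (-0.51), parental replicate 2 (-0.55) or parental replicate 3 (-0.38).

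LMF2, a lipase maturation factor gene, averaged 53.4 ± 3.62 CPM in HCT116oxR and 122 ± 2.38 CPM in parental cells (-1.19 ± 0.06). SCO2, a copper chaperone in the assembly of cytochrome c oxidase, averaged 7.62 ± 0.998 CPM in HCT116oxR and 13.8 ± 0.519 CPM in parental cells (-0.86 ± 0.15). SCO2 overlaps NCAPH2 in the annotation. Its paralog SCO1 did not pass (0.13 ± 0.08, edgeR adjusted p = 0.196), and of 18 assembly genes tested 2 rose and 3 fell. Those were PET117 (0.97 ± 0.40), COX16 (0.65 ± 0.22), SURF1 (-0.46 ± 0.08), COA5 (-0.35 ± 0.13) and COX11 (-0.20 ± 0.06), of which PET117 was not called by DESeq2 (0.97) or in 5 of the 6 fits without 1 library (0.80 to 1.04). COX16 was not called without HCT116oxR replicate 3 (0.44), nor COA5 without HCT116oxR replicate 2 (-0.31) or parental replicate 3 (-0.23).

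SHANK3, the scaffold of excitatory synapses, had 9.81, 9.25 and 10.8 CPM in HCT116oxR, against 23.6, 21.6 and 19.6 CPM in parental cells (-1.12 ± 0.13). MAPK8IP2, a scaffold of JNK signalling, averaged 8.82 ± 0.761 CPM in HCT116oxR and 22.9 ± 1.44 CPM in parental cells (-1.38 ± 0.13). The other SHANK genes rose, SHANK1 on chromosome 19 by 1.44 ± 0.19 and SHANK2 on chromosome 11 to 49.98 ± 3.74 CPM in HCT116oxR, against 28.8 ± 0.750 CPM in parental cells (0.79 ± 0.08). Of 7 postsynaptic scaffold genes tested, 3 rose and 0 fell.

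CHKB encodes choline kinase beta, which starts phosphatidylcholine synthesis. It had 48.4, 48.3 and 44.2 CPM in HCT116oxR, against 77.8, 77.7 and 80.9 CPM in parental cells (-0.75 ± 0.07). CPT1B, the muscle form of the enzyme that loads fatty acids onto carnitine, lies next to it and was the tested member whose lines overlapped, with 5.38, 7.16 and 6.44 CPM in HCT116oxR and 5.66, 5.97 and 6.96 CPM in parental cells (0.03 ± 0.19). The readthrough transcript CHKB-CPT1B, which spans both, averaged 45.1 ± 4.35 CPM in HCT116oxR and 48.7 ± 1.87 CPM in parental cells and did not pass (-0.11 ± 0.07, edgeR adjusted p = 0.243). The 3 entries share sequence and their reads cannot be told apart from the counts, so the values of CHKB and CPT1B are uncertain to that extent. CHKA on chromosome 11 rose by 0.40 ± 0.07, and CPT1A, the liver form of the carnitine enzyme, fell by 0.39 ± 0.04. Over the 10 genes tested of the Kennedy pathway of phospholipid synthesis, 3 rose and 4 fell. PCYT1A, its rate-limiting enzyme, fell by 0.45 ± 0.08 and ETNK2 by 0.32 ± 0.11, and CHPT1 rose by 0.49 ± 0.18. CHPT1 was not called by DESeq2 (0.49) or without HCT116oxR replicate 3 (0.41) or parental replicate 2 (0.29), nor ETNK2 without HCT116oxR replicate 2 (-0.22) or HCT116oxR replicate 3 (-0.29). Over 9 carnitine shuttle genes 3 rose and 1 fell, among them CPT1C (0.92 ± 0.26) and CPT2 (0.49 ± 0.10), which rose.

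The start of CHKB is shown because the transcript CHKB-AS1, now named CHKB-DT, fell in the test. CHKB-AS1 begins 177 bases away on the other strand, runs away from CHKB and does not overlap it. It also begins 27 bases from the start of CHKB-CPT1B, which lies on the same strand as CHKB and did not pass. The window is chr22:50582800-50583099 on the minus strand of GRCh38.p14 (RefSeq), printed in the direction of CHKB. Capitals mark the CCAAT box, here in its reverse form ATTGG, and the ETS motif CCGGAAG, both searched on both strands and without overlap between them.
CHKB: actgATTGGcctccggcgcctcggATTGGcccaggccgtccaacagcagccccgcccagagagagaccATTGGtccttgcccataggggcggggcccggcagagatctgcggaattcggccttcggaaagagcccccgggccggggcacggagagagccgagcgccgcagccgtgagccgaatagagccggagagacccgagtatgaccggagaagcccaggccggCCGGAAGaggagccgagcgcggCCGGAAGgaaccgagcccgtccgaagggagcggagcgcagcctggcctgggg
A CCAAT box was in 10 of 28 member windows and 35.7% of all RefSeq windows, and the ETS motif in 6 of 28 and 10.7%. The GC box, GGGCGG, was in 23 of 28 and 44.6%. All RefSeq windows were not matched to the members for GC content. The windows of ALG12 and CRELD2 share 295 of 300 bases and are both counted, so nothing is read from these shares.

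Member promoters had a median GC content of 75.5%, against 63.0% over 15427 protein-coding genes of the count table. Among 3326 other tested protein-coding genes with a promoter of at least 70% GC, the median log2 fold change was 0.02, and 24.9% fell and 28.4% rose. Members with such promoters had a median of -1.19 (17 genes) and those with less GC -1.48 (7 genes). Tested members without a promoter window are in neither group. Whether promoter GC has a part in the differences was not tested.

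RABL2B is the last protein-coding gene of the arm and encodes a small GTPase of cilia. It had 43.5, 36.7 and 39.7 CPM in HCT116oxR, against 115, 114 and 117 CPM in parental cells (-1.53 ± 0.06). RABL2A, a near-identical gene on chromosome 2, fell to 17.4 ± 1.64 CPM in HCT116oxR, against 32.5 ± 0.513 CPM in parental cells (-0.90 ± 0.10, edgeR adjusted p = 1.81e-13). How reads that match both were counted is not given in the sources used here, so the values of the pair are uncertain.

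Genes with few counts made up the rest. ACR, the sperm protease acrosin, had 12, 12 and 15 counts in HCT116oxR, against 56, 32 and 37 in parental cells, and ODF3B had 16, 11 and 11 against 42, 34 and 26. KLHDC7B, a kelch-domain gene, had 1 count over the HCT116oxR libraries and 60 over the parental libraries. Parental CPM over HCT116oxR CPM was thus 62.4, a ratio that rests on 1 HCT116oxR count. KLHDC7B passed the filter on low counts through the parental libraries alone, so the ratio is a description only. Its paralog KLHDC7A on chromosome 1 was the opposite, with 16, 11 and 28 counts in HCT116oxR and 0 in each parental library, at least 5.93-fold higher when each parental library is set to 3 counts. Another 4 members had too few counts to test, among them the germ cell genes MOV10L1 and SYCE3 and the astrocyte gene MLC1. TTLL8 had 2 and 0 counts over the HCT116oxR and parental libraries, MLC1 0 and 11, MOV10L1 1 and 5, and SYCE3 9 and 9. These counts are too few to say more. MLC1 was at 0 in every HCT116oxR library and above 0 in every parental library.

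Of the 24 paralogs compared with members, all on other chromosomes, 8 rose, 6 fell and 10 were not called, and the median was -0.03. In the longer list of relatives, which holds 42 tested genes, 16 rose and 9 fell, and the median was 0.10. Among the other paralogs, PANX1 rose by 0.22 ± 0.06, ADM by 0.31 ± 0.07 and PIM2 by 0.47 ± 0.12. PIM1 fell by 0.34 ± 0.09, DENND6A by 0.16 ± 0.05 and HDAC6 by 0.14 ± 0.05. HDAC6 was not called by DESeq2 (-0.14) or in 4 of the 6 fits without 1 library (-0.14 to -0.09), nor DENND6A without HCT116oxR replicate 1 (-0.12). BRPF1, BRPF3, CRELD1, SBF2, LMF1, PPP6R3, MAPK8IP1 and NCAPH did not pass, at -0.23 to 0.11. Relatives and partners together, 197 tested genes, had a median of -0.03, with 28.9% lower and 26.9% higher.

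**Figure D2:**
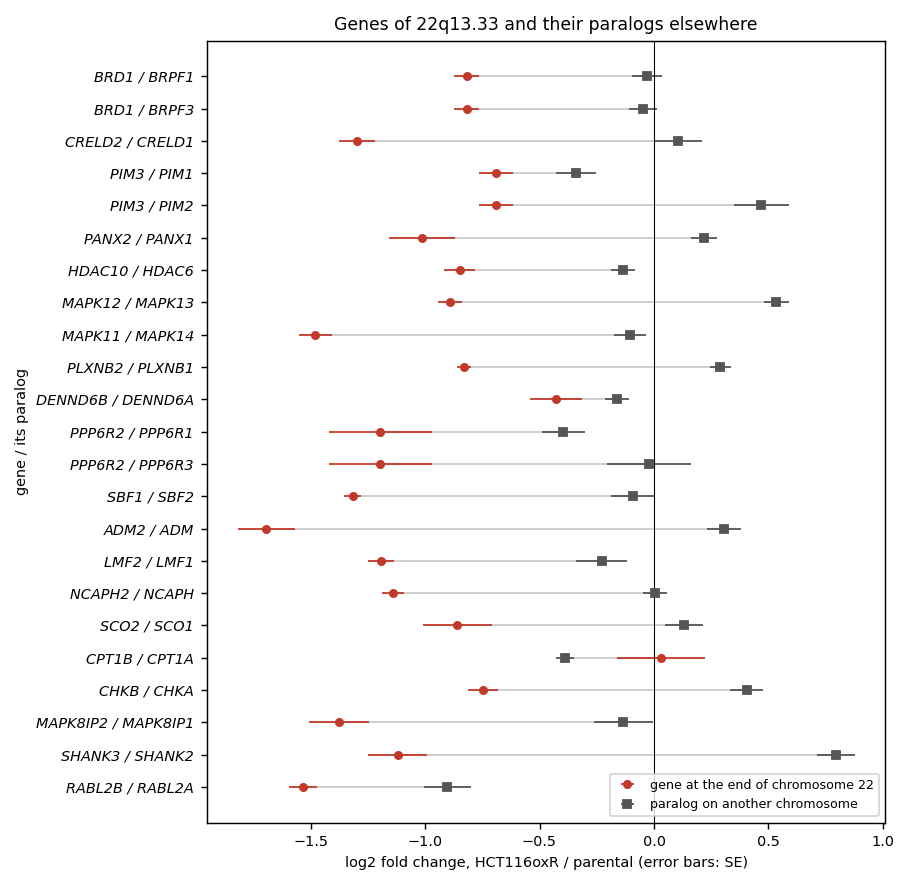
Log2 fold change, HCT116oxR over parental, of members (circles) and their paralogs on other chromosomes (squares), with SE as error bars. KLHDC7B is left out for its low counts. Circles lie between -1.69 and 0.03 and squares between -0.90 and 0.79, and the CPT1B circle is the one to the right of its square.

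**Figure D3:**
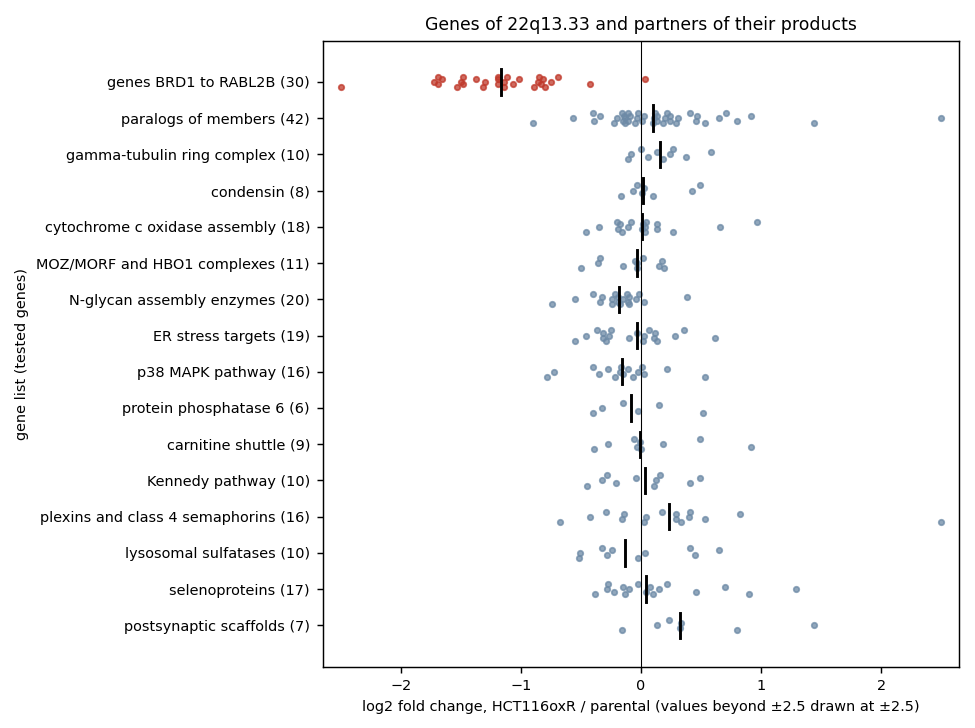
Log2 fold change of each tested gene (points) in the run and in lists of paralogs and partners, with the number tested in parentheses and the median as a black bar. The median of the run is -1.17 and those of the lists are between -0.18 and 0.32. KLHDC7B, KLHDC7A and PLXNA2 lie beyond the axis and are drawn at its ends.

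Other transcripts between BRD1 and RABL2B, which the list does not hold, have entries of their own in the counts. Of 17 such entries, 7 were tested and 3 fell, where 21.8% of all tested genes fell. The bounds of the run had been drawn with its low values in view. LOC105373095 and LOC105377205, 2 of the 3, had fewer than 10 counts in every HCT116oxR library. They passed the filter on low counts through the parental libraries alone, so nothing is read from the number that fell. CHKB-AS1 fell to 2.58 ± 0.482 CPM in HCT116oxR, against 6.25 ± 1.05 CPM in parental cells (-1.26 ± 0.24, edgeR adjusted p = 3.35e-06). LOC105373095, antisense to SELO, had 8, 6 and 3 counts in HCT116oxR, against 17, 18 and 18 in parental cells (-1.69 ± 0.53). LOC105377205, which overlaps ZBED4, had 5, 1 and 5 counts in HCT116oxR, against 20, 12 and 10 in parental cells (-1.95 ± 0.61). That call was lost without HCT116oxR replicate 2 (edgeR adjusted p = 0.0651), and without parental replicate 1 the gene no longer passed the filter on low counts. CHKB-CPT1B, the hairpin gene MIR6821 inside PIM3 (-0.36 ± 0.48) and the pseudogenes LOC150417 (0.25 ± 0.44) and RPL23AP82 (-0.38 ± 0.54) did not pass.

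On the proximal side, the nearest tested feature was the lncRNA gene C22orf34, 115.8 kb before BRD1. It had 20.9, 23.1 and 20.3 CPM in HCT116oxR, against 32.2, 31.2 and 33.9 CPM in parental cells, and fell by 0.60 ± 0.10 (edgeR adjusted p = 8.66e-08). BRD1, the first member inside the run, was at -0.82. The nearest tested protein-coding gene, TBC1D22A, lay 2598 kb away and fell by 0.39 ± 0.09. Beyond it CERK rose by 0.23 ± 0.05 and GTSE1 by 0.20 ± 0.05, and GRAMD4 (0.07 ± 0.08), CELSR1 (-0.06 ± 0.05) and TRMU (-0.03 ± 0.08) did not pass. Within 5 Mb of BRD1, 6 of 19 tested protein-coding genes rose and 3 fell, with a median of 0.01 and a range of -0.64 to 0.81. Along the whole proximal chromosome, 75 of 288 rose and 73 fell, with a median of -0.01. No protein-coding gene was tested between TBC1D22A and BRD1. The lncRNA LOC284930, which starts 2.14 Mb before BRD1, did not pass (0.28 ± 0.15), and C22orf34, which starts 0.359 Mb before BRD1 and lies next to it among the tested genes, fell.

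**Figure D4:**
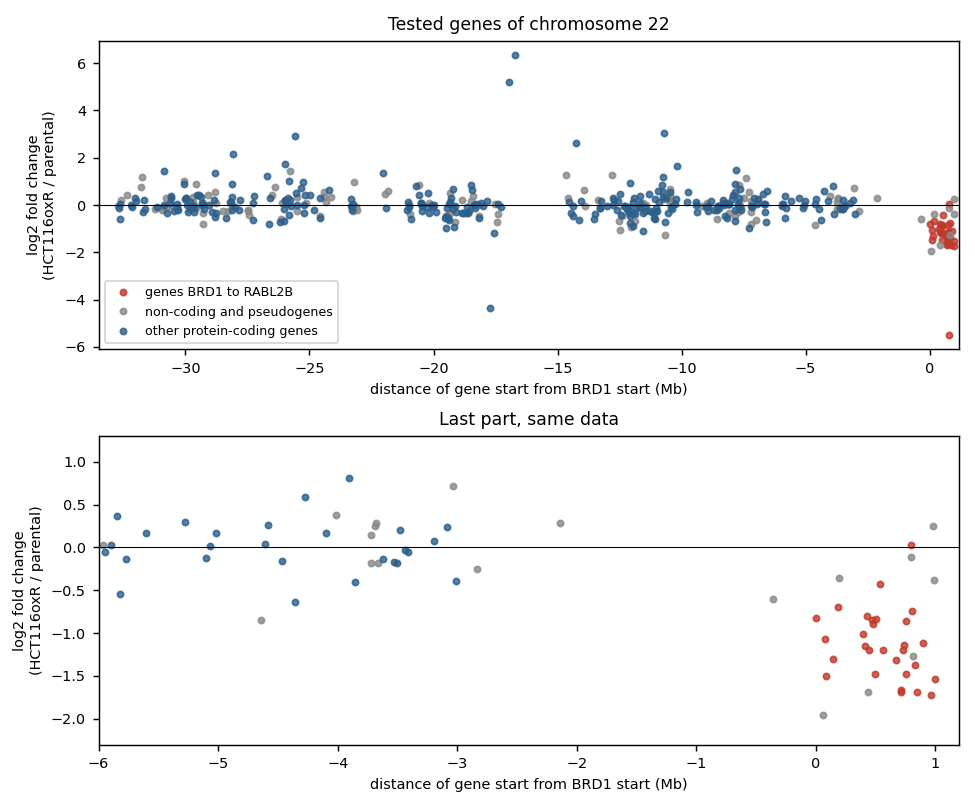
Log2 fold change, HCT116oxR over parental, of tested genes along chromosome 22 against the distance of their starts from the BRD1 start in Mb, for the whole chromosome (top) and its last part (bottom, without KLHDC7B below the axis). Proximal genes scatter around a median of -0.01 and the 30 genes of the run around -1.17.

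Of 352 windows of 1 Mb with at least 10 tested protein-coding genes, the last Mb of chromosome 22, with 25 such genes, had the lowest median, -1.19. The next was a window of chromosome 20 at -0.79. The run was picked for such values, so this order is not tested.

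Small RNA came from separate libraries. Of 2 RefSeq miRNA genes inside the run, MIR6821 lies in PIM3 and MIR12114 in PPP6R2. miR-12114 has no entry in the small RNA counts, and neither arm of miR-6821 passed the filter. The 5p arm had 4, 0 and 1 counts in HCT116oxR, against 7, 1 and 8 in parental cells, too few to compare. The nearest tested miRNA, miR-3667-3p in C22orf34, had 7.34, 3.80 and 4.39 CPM in HCT116oxR and 5.52, 5.97 and 3.18 CPM in parental cells and did not pass (0.09 ± 0.29, edgeR adjusted p = 0.841).

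Among 11 tested miRNAs of 22q13 in all, 2 rose and 2 fell, where 23.5% of 975 tested miRNAs rose and 21.2% fell, 44.7% in all. miR-378i fell by 0.50 ± 0.08 and let-7a-5p, which has 3 gene copies, by 0.11 ± 0.04, while both arms of miR-1249 rose (0.46 ± 0.16 and 1.41 ± 0.47). The calls of let-7a-5p and of miR-1249 were lost under the DESeq2 test and the replicate block, and that of miR-378i was not. Leaving out 1 library ended the call of let-7a-5p in 5 of 6 fits and that of each miR-1249 arm in 4 of 6. let-7b-5p, 3.66 Mb before BRD1, averaged 3167 ± 141 CPM in HCT116oxR and 2927 ± 37.6 CPM in parental cells and did not pass (0.11 ± 0.05, edgeR adjusted p = 0.0723). The other 5 (both arms of miR-33a, miR-4762-3p, let-7a-3p and let-7b-3p) did not pass, at -0.14 to 1.07.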

How the data were processed

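Whole-number counts were deposited, per gene for total RNA and per mature miRNA for small RNA. HISAT2 (total RNA) and BWA (small RNA) had aligned the reads to GRCh38, per the submitters' processing notes. Which tool and annotation produced the counts, whether strand was used and how multi-mapping reads were handled is not given in the sources used here. Gene positions and names were looked up in NCBI's GRCh38.p14 table, where 51469 of the 54261 table entries matched.

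For each table, edgeR 4.0.16 (R 4.3.3) was fitted over all features. Features passed filterByExpr, which asked for about 10 counts, scaled to library size, in at least 3 libraries and 15 in total. A feature could thus pass through the libraries of 1 line alone. Libraries were TMM-scaled, and the robust quasi-likelihood test was 2-sided with Benjamini-Hochberg adjustment at 0.05. "Rose" and "fell" mean past that threshold. The SE of a log2 fold change is its size divided by the root of F. Alternatives were DESeq2 1.42.0, other scalings, no filter, the replicate block and leaving out each library.

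Members, lists and partners were chosen with earlier results of these data known. Named genes are all members, the tested features beside them, the closest paralogs and up to 4 called genes of a partner list, with a few more named after their values were seen. A further gene of the run is not reported here. A total RNA library held 11950069 to 13558077 counts and a small RNA library 16089595 to 18147051.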

Additional observations from a re-analysis of the deposited data

How the results depend on the processing

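The 29 members called lower stayed at 29 under DESeq2 size factors, library totals, the DESeq2 test, the replicate block and each left-out library, and were 30 of 34 without the filter, where MLC1 was called as well. Their median log2 fold change lay between -1.18 and -1.14 without 1 library, with -1.14 the value without HCT116oxR replicate 1, and at -1.17 with the replicate block. Same-numbered libraries of the lines did not deviate together (correlations of -0.03 to -0.01 in total RNA and -0.14 to 0.08 in small RNA). In small RNA, HCT116oxR replicate 3 and parental replicate 2 reached 0.171. With 3 libraries per line, such values cannot show whether libraries were handled in pairs, and the main fit did not pair them. Called miRNAs of 22q13 were unstable. The count lower was 1 under DESeq2 size factors, library totals, no filter, the DESeq2 test and the block, and 1 to 3 without 1 library. The count higher was 4 with library totals, 1 without the filter, 0 with the DESeq2 test and the block, and 0 to 3 without 1 library. let-7a-5p was the call lost under the other scalings and both arms of miR-1249 were lost in DESeq2 and under the block. In small RNA, the HCT116oxR libraries lay further apart from each other than the parental ones. Chi-square per degree of freedom between pairs of libraries, a measure of that spread, was 27.6 to 90.9 in HCT116oxR. It was 6.56 to 12.3 in parental cells. The cause of the lost calls was not tested. Of the other transcripts in the run, 2 to 3 fell without 1 library. Partner genes called lower numbered 47 to 59 and those called higher 48 to 53 over all alternatives. Depth limits ACR, ODF3B, KLHDC7B, the 4 untested members and the lncRNAs, which rest on few counts.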
